A study of Mus musculus with 2 samples.

Results

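The tendon immune cells described here were 189 of the 2364 cells of the wild-type library and 185 of the 2592 cells of the mutant library, 374 of 4956 cells in all. They were chosen by their UMI counts, a UMI being the molecular tag that lets each captured mRNA be counted once: a member held at least 5 UMIs summed over Tyrobp, Fcer1g, Laptm5 and Ptprc and less than 10% of its UMIs on 4 haemoglobin genes. Each library came from the limb tendons, front and hind, of 2 pups pooled at P7 and dissociated with enzymes without sorting. The mutant pups were Tgfbr2 f/-;ScxCre, in which the floxed gene of the type II TGF-beta receptor is removed in Scx-expressing cells, and the controls are called wild type by title and genotype but Het in their description. Pups of both groups also carried the ScxGFP and RosaT (Ai14 tdTomato) reporters. ScxCre follows a gene of tendon cells, and in embryos some tenocytes escape it. Each condition is 1 library, so nothing below is a test between conditions, whose effect and that of the batch cannot be told apart. Intervals are exact at 95% and cover counting error only, and the cells of a library are not replicates.

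Macrophages are the main resident immune cells of most connective tissues. They clear dying cells and matrix fragments, digest them in lysosomes, recognise them through scavenger, complement and Fc receptors, and recruit other leukocytes with chemokines. Macrophages along vessels are marked by Lyve1, Folr2, Cd163 and Mrc1, whereas cells that present antigen on MHC class II include dendritic cells and some monocyte-derived macrophages. Mast cells are another resident type and store proteases in granules.

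The immune cells made up 7.99% of the wild-type library (6.93 to 9.16%) and 7.14% of the mutant library (6.18 to 8.20%), and these intervals overlap. The libraries held 9451606 and 8250248 UMIs, and the median member held 2477 and 1703 UMIs. With all cells thinned to 1500 UMIs, and 199 and 328 cells below that depth left out, 6.37% (5.38 to 7.49%) and 4.33% (3.53 to 5.25%) of the remaining cells met the rule, and these intervals do not overlap. Of the members themselves, 41 and 77 were below that depth. The rule separated cells with few intermediates. Just outside it were 1 wild-type and 6 mutant cells with 3 or 4 UMIs of the 4 genes, and just inside it 2 and 9 cells with 5 or 6, against a median of 19 and 17 UMIs among the members. No barcode was shared between the members of the 2 libraries, and 2 were shared among all cells.

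Markers that the rule did not use matched the label in most members. C1qa, a chain of the complement protein C1q, had UMIs in 180 wild-type (95.2%) and 162 mutant members (87.6%), Csf1r, the receptor for the macrophage growth factor CSF1, in 161 and 132, and the myeloid transcription factor Spi1 in 136 and 110. In the cells that were neither members nor haemoglobin-rich, C1qa had UMIs in 1.58% and 0.773%. Of the marker genes of the label outside the rule, Cd163, a haemoglobin scavenger receptor, was found in 32 and 12 members (16.9% and 6.49%) and Cd74, the invariant chain of MHC class II, in 21 and 35 (11.1% and 18.9%). Tgfbr2 itself had 49 UMIs in 43 wild-type members and 31 UMIs in 28 mutant members. A count of 3′ ends need not change when a floxed exon upstream is lost, so it checks no label. Xist had 1 and 0 UMIs and the Y-linked gene Ddx3y 368 and 337 UMIs over all cells of the libraries.

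Transcripts of tendon cells were present in the members and have to be read against free RNA. Haemoglobin-rich cells (over 50% of UMIs on haemoglobin genes, 88 and 79 cells) should not make Scx or collagen, yet in the wild-type library they held 7.78 UMIs per cell of a list of 10 tenocyte genes, and 0.759 in the mutant library. The macrophage-like cells defined below held 7.65 and 0.630, means below those of the haemoglobin-rich cells, and these means are read as background. Single cells could hold more, as did a wild-type macrophage-like cell with 104 UMIs of tenocyte and fibroblast genes together. Col1a1 was the most abundant gene of the list in the macrophage-like cells, with 3.22 and 0.259 UMIs per cell. Scx, the tendon transcription factor, was detected in 69.9% of the wild-type macrophage-like cells and 62.5% of the haemoglobin-rich cells, at median depths of 2380 and 5682 UMIs, and in 9.63% and 13.9% in the mutant library, at 1540 and 4451 UMIs. The paper states that Scx levels in these data include those of the ScxGFP reporter, so they are not levels of the endogenous gene alone. Of the wild-type UMIs of Scx and Col1a1 together, Scx took 32.6% (29.5 to 36.0%) in the macrophage-like, 24.3% (20.3 to 28.5%) in the haemoglobin-rich and 24.2% in the other cells, so that Scx stood above its ratio to Col1a1 in the free RNA there. The origin of that excess was not tested. In the mutant library the share was 27.1% (15.3 to 41.8%) in the macrophage-like, 33.3% (18.0 to 51.8%) in the haemoglobin-rich and 25.8% in the other cells, with no such excess.

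Within each library the members were clustered alone (K-means, 6 clusters) and named from fixed markers, so the leading genes of a cluster describe it and are no finding. In the wild-type library 173 of 189 members (91.5%, 86.6 to 95.1%) fell into 2 macrophage-like clusters of 103 and 70 cells. In the mutant library 135 of 185 (73.0%, 66.0 to 79.2%) formed a single macrophage-like cluster, and 33 members (17.8%, 12.6 to 24.1%) were in unnamed clusters, against 5 (2.65%, 0.864 to 6.07%) in the wild-type library. The share in macrophage-like clusters was therefore lower in the mutant library, with intervals that do not overlap. Counted across clusters by at least 3 UMIs over at least 2 genes of the macrophage list, the shares were closer, 182 of 189 (96.3%, 92.5 to 98.5%) and 169 of 185 (91.4%, 86.3 to 94.98%), with intervals that overlap. The largest unnamed mutant cluster had 31 cells led by Ccr2, the receptor that brings monocytes out of blood, Ccl6, Il1b and Cd209a against the other cells of the library. Against the other members it was led by Ngp, S100a9, S100a8 and Camp, genes of neutrophil granules and cytosol, and it held the 2 cells with these genes described below. With Leiden clustering, 45.5% and 56.2% of the members fell into macrophage-like clusters, the opposite direction.

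**Figure D1:**
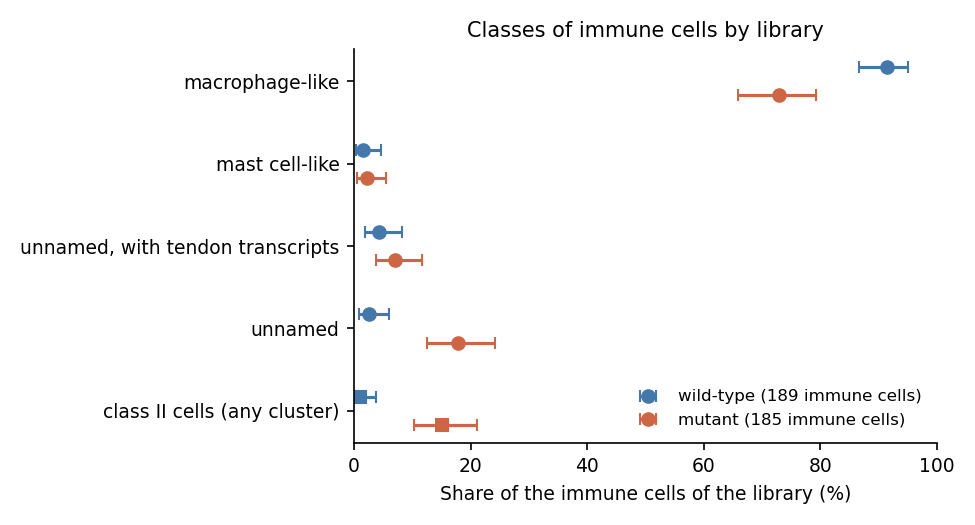
Share of the immune cells of each library (x axis, percent) in each class of cluster (circles) and among class II cells counted across clusters (squares), with exact 95% binomial intervals for counting error only. The macrophage-like share was 91.5% and 73.0% in the wild-type and mutant libraries, and the class II share 1.06% and 15.1%.

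Mast cell-like clusters held 3 wild-type and 4 mutant cells, 1.59% (0.329 to 4.57%) and 2.16% (0.592 to 5.44%) of the members. Every one of these cells carried granule proteases at high level. Tpsb2, a tryptase, had 262, 189 and 154 UMIs in the wild-type and 96, 104, 211 and 118 in the mutant cells, and Cma1, a chymase, had 276, 234 and 223 against 87, 148, 149 and 98. The wild-type cells lay above the mutant cells for Cma1, whereas the Tpsb2 counts overlapped. Total UMIs were 3114, 2820 and 2327 in the wild-type and 1426, 1952, 2780 and 1589 in the mutant cells. The counts of Tpsab1, another tryptase, also overlapped, with 159, 141 and 86 against 87, 120, 225 and 102. Relative to total UMIs, every mutant cell lay above every wild-type cell for Tpsab1, the opposite direction to Cma1. A difference in the number of mast cells was not detectable at this depth.

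A cluster of 8 wild-type members and another of 13 mutant members combined immune and tendon transcripts on average and were left unnamed. The wild-type cells held 497 UMIs per cell of the tenocyte list, close to the 413 of cells that were neither members nor haemoglobin-rich. The mutant cells held 50.6 UMIs per cell of the tenocyte list and 48.3 of a fibroblast list, where the other mutant cells held 90.0 of the tenocyte list. A mutant cell of the cluster with 2946 UMIs had only 1 UMI of these 2 lists, so not every cell combined both kinds. The mutant cluster also held 2 UMIs per cell of 8 endothelial genes, against 0.111 in the mutant macrophage-like cells. Scrublet, which simulates doublets, called 3 of the 8 and 4 of the 13 as doublets, against 1 of the 173 and 0 of the 135 macrophage-like cells.

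MHC class II transcripts marked far more immune cells in the mutant library. Class II cells, with at least 3 UMIs over H2-Aa, H2-Ab1 and H2-Eb1, which encode chains of the class II molecules that hold peptides for T cells, were 2 of 189 wild-type members (1.06%, 0.128 to 3.77%) and 28 of 185 mutant members (15.1%, 10.3 to 21.1%). The genes and the threshold were picked after their values had been seen, and the cells contributed to the clusters, so these shares are a description. H2-Aa had 66 UMIs in 3 wild-type and 996 UMIs in 30 mutant members, H2-Ab1 48 in 3 and 960 in 28, and H2-Eb1 34 in 3 and 744 in 28. The count was far above or at 0 in nearly every cell. The 2 wild-type class II cells held 74 and 71 class II UMIs, and 26 of the 28 mutant cells held 10 or more, up to 298. No haemoglobin-rich cell had a class II UMI. Among the other cells, 0 of 2087 in the wild-type and 25 of 2328 (1.07%) in the mutant library had 3 or more. These included 2 mutant cells with 234 and 198 class II UMIs that had 2 and 4 UMIs of the rule genes, short of the 5 required. Thinned to 1500 UMIs, 2 of 148 wild-type (1.35%, 0.164 to 4.80%) and 25 of 108 mutant members (23.1%, 15.6 to 32.2%) were class II cells. The mutant class II cells were deeper, at a median of 2456 UMIs, than the other mutant members, at 1571. Thinning therefore left out mainly other members, and the higher mutant share is no sign of a larger difference.

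The sequences just before the start sites of class II genes are shown because these genes were counted together in the same cells: H2-Aa and H2-Ab1 in all 28 mutant class II cells and H2-Eb1 in 27 of them. Class II promoters are known for a shared group of short elements, among them the Y box, bound by the factor NF-Y. The windows of 250 bases before to 50 after the start, from RefSeq on GRCm38.p6, were searched on both strands for CTGATTGG, which 4.10% of 32851 promoters held. It was found in H2-Aa, 51 bases before the start, and in H2-Eb1, 62 bases before it. Of the other genes of class II presentation, it was found in H2-Oa, 46 bases before the start, and not in the windows of H2-Ob, H2-DMa, H2-DMb1, H2-DMb2, Ctss or Ifi30, which says only that these letters are not there. The promoters of H2-Ab1, Cd74 and Ciita were not analysed here. The last 130 bases before each start are printed on the gene's strand, with the match in capitals, at chr17:34287824-34287953 (minus strand) for H2-Aa and chr17:34305737-34305866 (plus strand) for H2-Eb1.
H2-Aa: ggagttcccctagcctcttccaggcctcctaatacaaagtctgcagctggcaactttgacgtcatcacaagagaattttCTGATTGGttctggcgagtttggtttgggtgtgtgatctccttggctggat
H2-Eb1: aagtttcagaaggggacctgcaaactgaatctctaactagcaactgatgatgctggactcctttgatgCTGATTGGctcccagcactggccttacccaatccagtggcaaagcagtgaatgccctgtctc

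The 28 mutant class II cells were mixed. Of these, 23 lay in the unnamed cluster of 31 cells, 3 in the macrophage-like cluster and 2 in the cluster with tendon transcripts. C1q genes (C1qa, C1qb and C1qc together) had at least 3 UMIs in 18 of the 28 cells and none in 6, whereas 145 of the 157 other mutant members had at least 3. Ccr2 had UMIs in 17 of the 28 class II cells and 12 of the 157 others. Cd209a, a lectin of monocyte-derived dendritic cells, had UMIs in 5 class II cells and no other member of either library. Flt3, the receptor for a growth factor of dendritic cells, had UMIs in 3, and a single cell with 2 UMIs each of Flt3, Xcr1 and Clec9a also had 220 class II UMIs. Mrc1, the mannose receptor, had UMIs in 4 of the 28 class II cells and 73 of the 157 others. Both wild-type class II cells carried C1q, with 80 and 28 UMIs, and none of the 189 wild-type members had a UMI of Cd209a or Flt3, which bounds the share of cells with a UMI of either gene at 1.93% (exact) and sets no limit on cells expressing it.

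**Figure D2:**
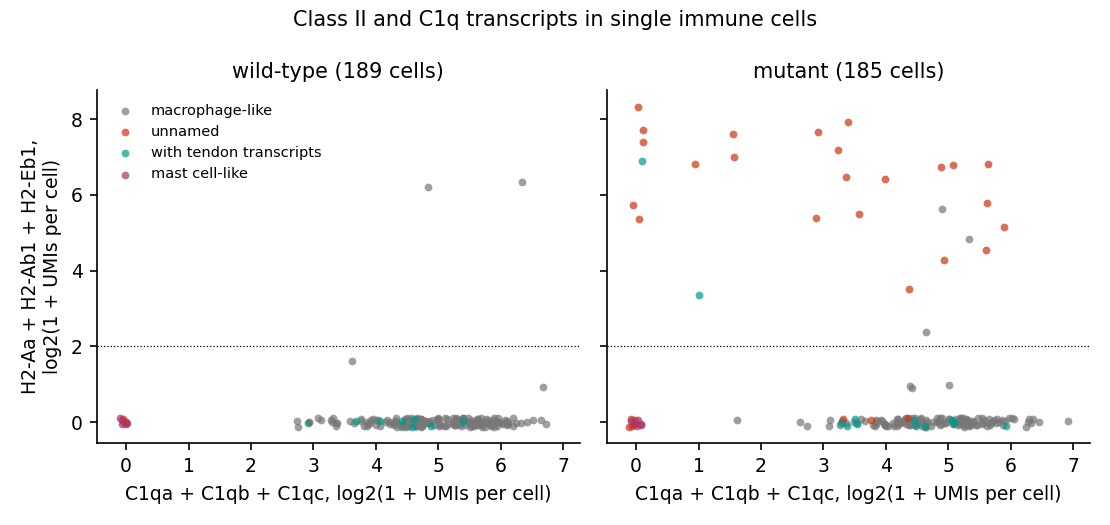
Each point is an immune cell, with its C1q UMIs on the x axis and its class II UMIs on the y axis, both as log2 of 1 plus the UMIs per cell with a small random shift, coloured by class of cluster. The dotted line marks 3 class II UMIs, above which lie 2 wild-type and 28 mutant cells, 6 of the mutant cells with no C1q UMI.

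Ccr2 over all members had 10 UMIs in 6 wild-type and 65 UMIs in 29 mutant cells, with 1 and 0 UMIs in the other cells. Neutrophil granule genes were abundant in 2 mutant members. Ngp had 105 and 123 UMIs in them, Camp, an antimicrobial peptide, 53 and 70, and S100a9, a calcium-binding protein of neutrophils, 98 and 129. Camp and S100a9 had 1 UMI each in the wild-type members, and outside the members of the mutant library Ngp had 29 UMIs in 2 cells, Camp 18 in 6 and S100a9 126 in 7. Counted as at least 3 UMIs over at least 2 genes of the neutrophil list, there were 0 wild-type members (exact upper bound 1.93%), 2 mutant members, and 0 and 5 of the other cells. Lymphocyte genes were low. Cd3e had 1 and 0 UMIs in the members, Nkg7 0 and 0 and Cd79a 0 and 0, whereas Cd79b had 7 UMIs in 7 wild-type and 9 UMIs in 9 mutant members, the only UMIs of the B cell list. The list of T, NK and innate lymphoid cells had 36 and 12 UMIs in all. By the same count on the lists of T, NK and innate lymphoid cells and of B cells there were 1 and 0 wild-type members and 0 and 0 mutant members. The monocyte list gave 6 wild-type and 18 mutant members (3.17% and 9.73%), but also 0.240% and 3.01% of the other cells. Plac8, a gene of that list, had 704 UMIs in 255 of the other mutant cells, and its part in the count was not tested. In the wild-type members, 42 of the 44 Plac8 UMIs lay in an unnamed cluster of 4 cells. All 4 had Plac8, 2 had Ccr2, and C1qa had 0 UMIs in them. The osteoclast list gave 1 member in each library and 54 and 81 other cells. The list of megakaryocyte and platelet genes gave 14 and 7 members, and it includes Pf4, which the macrophage list holds as well.

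With 8 clusters, each library had 2 macrophage-like clusters, of 103 and 70 wild-type cells, as with 6 clusters, and of 78 and 58 mutant cells. The mutant cells in them were not exactly those of the single cluster of 135. The first wild-type cluster was higher in Apoe, a lipid carrier, with 15191 against 2624 CPM (counts per 1e6 UMIs of the cluster), and in the perivascular gene Folr2, with 1381 against 625. The second was higher in Birc5, a gene of cell division, with 347 against 4.21 CPM. In the mutant library the first cluster was higher in Spp1 (1096 against 186 CPM) and the fractalkine receptor gene Cx3cr1 (917 against 227). The second mutant cluster was higher in Cd163 (114 against 7.46 CPM), Lyve1 (196 against 7.46), F13a1 (867 against 179) and Ccl8 (692 against 82.0). C1qa was abundant in every one of them, at 5947 and 4864 CPM in the wild-type and 7627 and 6101 CPM in the mutant clusters. In the first mutant cluster Cd163 and Lyve1 had UMIs in 1.28% of the 78 cells each, whereas Lyve1 had UMIs in 40.8% and 37.1% and Cd163 in 22.3% and 12.9% of the cells of the 2 wild-type clusters. In the second mutant cluster they had UMIs in 22.4% and 17.2% of the cells. These genes were part of the clustering, and the clusters of the 2 libraries divide along different genes, so the contrasts within a library and between clusters of the 2 libraries are descriptions.

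**Figure D3:**
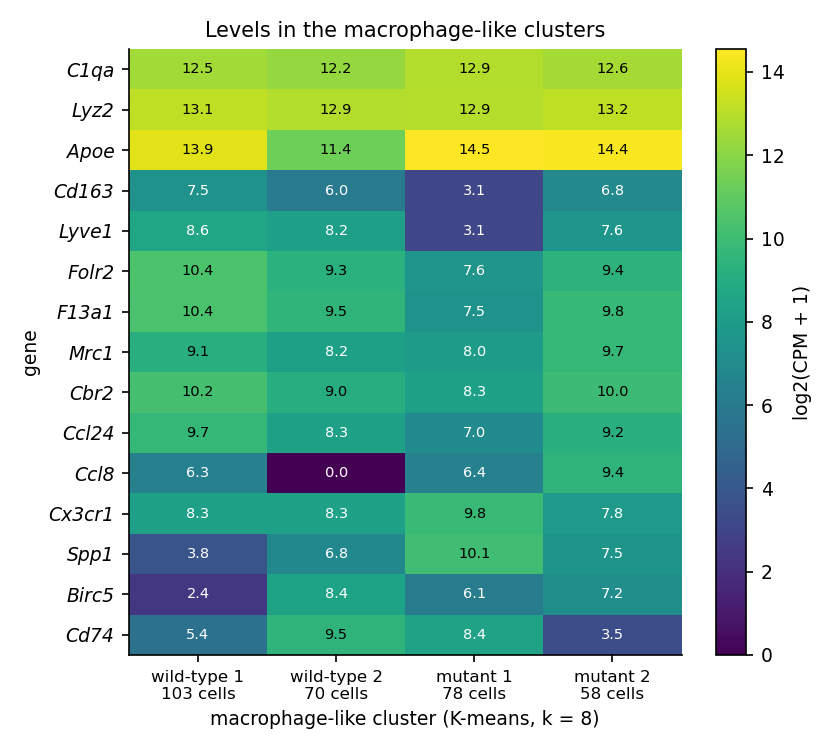
Heat map of log2(CPM + 1) for 15 genes (rows) in the macrophage-like clusters of each library (columns) from K-means with 8 clusters, with the value written in each cell. Cd163 and Lyve1 are lowest in the first mutant cluster, which has the highest Spp1, and C1qa and Lyz2 are high in all 4 clusters.

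The macrophage-like cells of the 2 libraries were compared by summing UMIs over the 173 and 135 cells, which gave 456583 and 228938 UMIs at medians of 2380 and 1540 per cell. Of 834 genes whose mean reached 0.5 UMI per cell in either library, 22 were at least 2-fold higher in the mutant library (2.64%) and 35 at least 2-fold lower (4.2%). The median log2 ratio was -0.04. Of these genes, 9 of the 22 higher ones met the limit in the mutant library alone and 25 of the 35 lower ones in the deeper wild-type library alone, so the limit itself shapes these counts. In the cells that were neither members nor haemoglobin-rich, 747 of the 834 genes were within 2-fold, and among these 9 were higher and 17 lower in the macrophage-like cells. The genes described next are the 12 in each direction with the largest ratio whose CPM, in the library where they were higher, was at least 2-fold that of the haemoglobin-free UMIs of haemoglobin-rich cells. Genes thereby left out included Scx (270 and 13 UMIs, ratio 0.0960), Col1a1 (557 and 35, 0.125) and Col1a2 (344 and 24, 0.139), which were lower in the other cells too (ratios of 0.278, 0.255 and 0.260). They also included the ribosomal gene Rps6 (162 and 11 UMIs, ratio 0.135), with a ratio of 0.174 in the other cells.

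**Figure D4:**
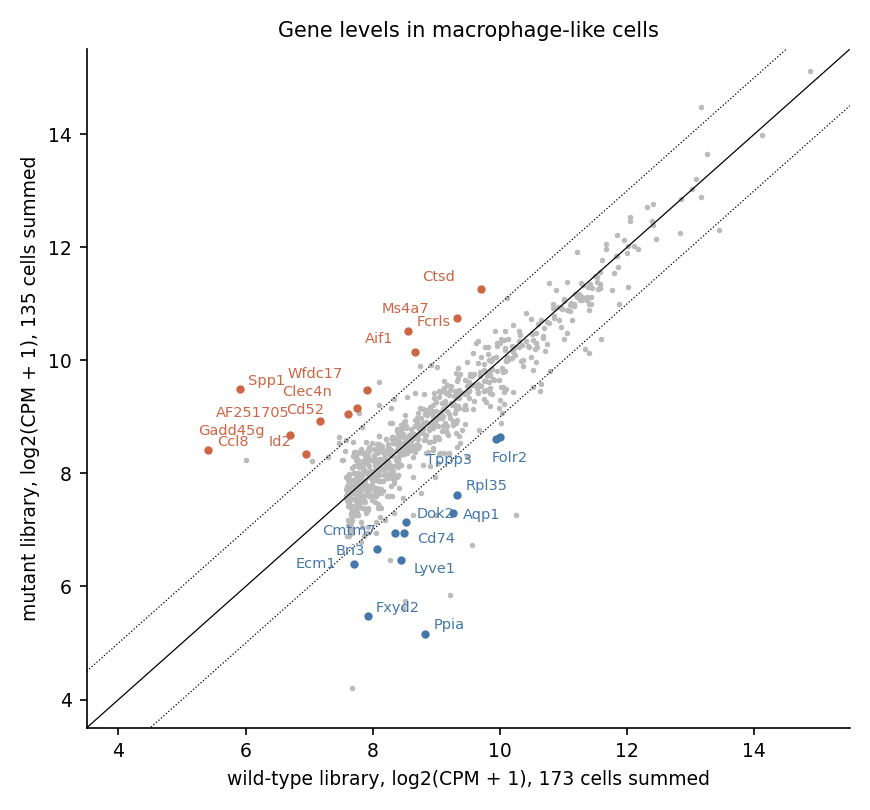
Each point is 1 of 834 genes, with log2(CPM + 1) of the summed wild-type macrophage-like cells on the x axis and of the mutant cells on the y axis. The solid line marks equal levels and the dotted lines 2-fold, and the 12 genes with the largest ratio in each direction among those above free RNA are named, Spp1 and Ccl8 above and Ppia and Fxyd2 below lying farthest out of the named genes.

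Spp1 and Ccl8 had the largest ratios. Spp1 (chromosome 5 from 104435118 to 104441050, GRCm38), which encodes the matrix cytokine osteopontin, had 27 UMIs in wild-type and 165 UMIs in mutant macrophage-like cells, or 59.1 and 721 CPM, a ratio of 12.2 (8.08 to 19.1). It was detected in 9.83% and 22.2% of these cells. Ccl8, a chemokine for monocytes and lymphocytes (chromosome 11 from 82115185 to 82116799), had 19 and 78 UMIs, or 41.6 and 341 CPM, a ratio of 8.19 (4.91 to 14.3). Both were also higher in the other cells of the mutant library, Spp1 with 33 and 1451 UMIs and Ccl8 with 7 and 156, and neither had a UMI in haemoglobin-rich cells. The part of those other cells in the ratios was not tested. Both sizes depended on which cells were summed. Over all members the ratio was 6.13 (4.32 to 8.88) for Spp1 and 5.28 (3.27 to 8.88) for Ccl8, and in the smaller macrophage-like clusters of Leiden clustering Spp1 had 19 and 150 UMIs (ratio 11.4) and Ccl8 1 and 70 UMIs (ratio 100.8, 17.5 to 4037). Wfdc17, a small secreted inhibitor-like protein of activated macrophages, was 2.96-fold higher (2.31 to 3.81).

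Of the other higher genes, Fcrls, an Fc receptor-like gene known from microglia, had 171 and 337 UMIs, a ratio of 3.93 (3.26 to 4.75), and was detected in 50.9% and 72.6% of the cells, with 4 and 13 UMIs in all other cells. Aif1, which encodes the actin-bundling protein IBA1, had a ratio of 2.80 (2.31 to 3.40). Ms4a7, a membrane protein of macrophages, had 2.70 (2.31 to 3.15), or 1.97 over all members, which is under 2-fold. Clec4n, the fungal receptor dectin-2, had 2.65 (2.02 to 3.47), or 4.57 in the Leiden clusters. AF251705 had a ratio of 3.41 (2.49 to 4.70). Cd52, a surface glycoprotein of leukocytes, had 89 and 121 UMIs and a ratio of 2.71 (2.05 to 3.61), with 26 and 75 UMIs in the other cells, where the ratio was 3.23 (2.04 to 5.25). Its ratio was 5.35 (4.28 to 6.75) over all members and 15.7 (8.22 to 33.7) in the Leiden clusters, so the direction held but the size did not. Ctsd, the lysosomal protease cathepsin D, had 378 and 562 UMIs, or 828 and 2455 CPM, a ratio of 2.97 (2.60 to 3.39), against 1.32 in the other cells. The stress-response gene Gadd45g had a ratio of 3.95 (2.75 to 5.73) and Id2, an inhibitor of basic helix-loop-helix factors, of 2.64 (1.84 to 3.80), where the ratios in the other cells were 0.864 and 0.836. After thinning to 1500 UMIs, Fcrls was detected in 39.7% of 136 wild-type and 71.0% of 69 mutant macrophage-like cells, and Spp1 in 5.15% and 29.0%.

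Lyve1 and Folr2, genes of perivascular resident macrophages, were among the lower genes. Lyve1, a hyaluronan receptor (chromosome 7 from 110850607 to 110863239), had 159 and 20 UMIs, or 348 and 87.4 CPM, a ratio of 0.251 (0.149 to 0.401). Folr2, the beta folate receptor (chromosome 7 from 101839988 to 101857194), had 465 and 91 UMIs, or 1018 and 397 CPM, a ratio of 0.390 (0.308 to 0.490). In the other cells Lyve1 had 4 and 14 and Folr2 17 and 3 UMIs. Lyve1 was detected in 39.3% and 10.4% of the cells and Folr2 in 75.1% and 38.5%, and after thinning in 35.3% and 8.70%, and in 66.9% and 31.9%. Dok2, an adaptor that restrains receptor signalling in myeloid cells, had 168 and 32 UMIs, a ratio of 0.380 (0.252 to 0.557), with 5 and 2 UMIs in the other cells. Over all members its ratio was 0.541 (0.401 to 0.722), no longer 2-fold lower.

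Several of the remaining lower genes were lower in the other cells of the mutant library as well. Ppia, which encodes cyclophilin A, had 207 and 8 UMIs, a ratio of 0.0771 (0.0328 to 0.155), and a ratio of 0.129 in the other cells. Rpl35, a ribosomal protein gene, had a ratio of 0.307 (0.219 to 0.422), and 0.451 in the other cells. Both have near-identical copies in the genome among which reads can be split, so their values are uncertain. The part of such copies in the ratios was not tested. Bri3 had a ratio of 0.376 and Tppp3 of 0.395, against 0.316 and 0.378 in the other cells. Cmtm7 (0.377) and Ecm1 (0.399), an extracellular matrix protein, had ratios of 0.615 and 0.598 in the other cells. Aqp1, a water channel, had 279 and 36 UMIs, a ratio of 0.257 (0.177 to 0.365), or 0.392 in the Leiden clusters, and 0.657 in the other cells. Fxyd2, a subunit of the sodium pump, had 110 and 10 UMIs, a ratio of 0.181 (0.0846 to 0.346), and 1.61 in the other cells. Cd74 had 164 and 28 UMIs in the macrophage-like cells, a ratio of 0.340 (0.219 to 0.511), but 145 of the wild-type UMIs came from the 2 class II cells, which lie in the second wild-type cluster. Over all members Cd74 had 166 and 613 UMIs, and its ratio was 5.23, in the opposite direction, as it was in the Leiden clusters with 10 and 26 UMIs (3.74, 1.75 to 8.70).

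The functional lists were read at a lower limit of 0.1 UMI per cell, which 3496 genes met. Of these, 133 (3.8%) were at least 2-fold higher and 264 (7.55%) at least 2-fold lower in the mutant library, and the median log2 ratio over all was -0.03. Among the 133, 75 met the limit in the mutant library alone, and of the 264, 220 in the wild-type library alone. These genes passed the limit only through the library where they were higher, so the counts per list below are descriptions. Of the 40 list members past 2-fold, counted once per list, 15 met it in the wild-type library alone and 1 in the mutant library alone. Of 15 measured perivascular resident genes, 5 were at least 2-fold lower and none higher, and the median log2 ratio was -0.52, against -0.29 for the same genes in the other cells. The 5 were Lyve1, Folr2, Cd163, F13a1 (the transglutaminase factor XIII) and Fcna (a ficolin). F13a1 had 471 and 108 UMIs (ratio 0.457, 0.368 to 0.565), Cd163 56 and 12 (0.427, 0.208 to 0.807) and Fcna 76 and 19 (0.499, 0.285 to 0.833, or 0.326 over all members). Cd163 met the limit in the wild-type library alone and the other 4 in both. The most abundant member, Pf4, a platelet-factor chemokine, had 9144 and 7596 CPM, and Selenop, a selenium carrier, 2755 and 2215. Mrc1 and Igf1 lay on the other side, with ratios of 1.16 (0.912 to 1.46) and 1.28 (0.947 to 1.71).

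Of 11 measured chemokines, 5 were at least 2-fold higher and none lower, and the median log2 ratio was 0.48, against 1.003 for the same genes in the other cells. Beside Ccl8 these were Ccl6 (33 and 65 UMIs, ratio 3.93, or 6.87 in the Leiden clusters), Ccl4 (24 and 32, 2.66), Ccl12 (100 and 123, 2.45) and Cxcl16 (80 and 85, 2.12). Ccl24, a chemokine for eosinophils that perivascular macrophages make, had 269 and 75 UMIs and a ratio of 0.556 (0.425 to 0.721), and Ccl2 had 327 and 228 and a ratio of 1.39 (1.17 to 1.65). All 5 higher chemokines met the limit in both libraries. Over all members Ccl4 had 49 and 35 UMIs and a ratio of 1.01 (0.637 to 1.59), with 24 of the 49 in 1 cell of an unnamed wild-type cluster. Ccl4 was also under 2-fold in the Leiden clusters (1.92), as was Ccl12 over all members (1.92). Ccl8, Ccl12 and Cxcl16 were higher in the other cells too, with ratios of 24.9, 9.69 and 2.01, whereas Ccl4 and Ccl6 each had 1 and 0 UMIs there. Among 13 chemokine and cytokine receptors, Il4ra, a chain of the receptor for interleukin 4, was higher (19 and 47 UMIs, ratio 4.93, 2.84 to 8.90) and Cxcr4 lower (19 and 4 UMIs, ratio 0.420, 0.104 to 1.26, an interval that includes equal levels). In the Leiden clusters Cxcr4 had 10 and 1 UMIs (ratio 0.144, 0.00332 to 1.01). Cx3cr1 had a ratio of 1.98 (1.56 to 2.51) and Csf1r of 1.27 (1.09 to 1.47).

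Of 24 measured lysosomal genes, 18 had a ratio above 1, against 45.4% of all 3496 genes, 2 were at least 2-fold higher and none lower. Their median log2 ratio was 0.30, and the same genes had a median of 0.27 in the other cells, where all 3496 had one of 0.21. Ctsh, an aminopeptidase-like cathepsin, had 29 and 69 UMIs and a ratio of 4.75 (3.03 to 7.60), or 8.93 in the Leiden clusters, with 301 CPM in mutant macrophage-like and 194 CPM in mutant haemoglobin-rich cells. Cathepsin S (Ctss, ratio 1.97) lay just under 2-fold, and the abundant members Lyz2, lysozyme, with 8310 and 8391 CPM (1.01, 0.955 to 1.07), the protease inhibitor Cst3 (1.31) and Ctsb (1.23) differed less. The 9 complement genes had none past 2-fold and a median log2 ratio of 0.36, with C1qa at 5427 and 6941 CPM (ratio 1.28, 1.20 to 1.36), C1qb at 4214 and 5919 and C1qc at 4212 and 5670.

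**Figure D5:**
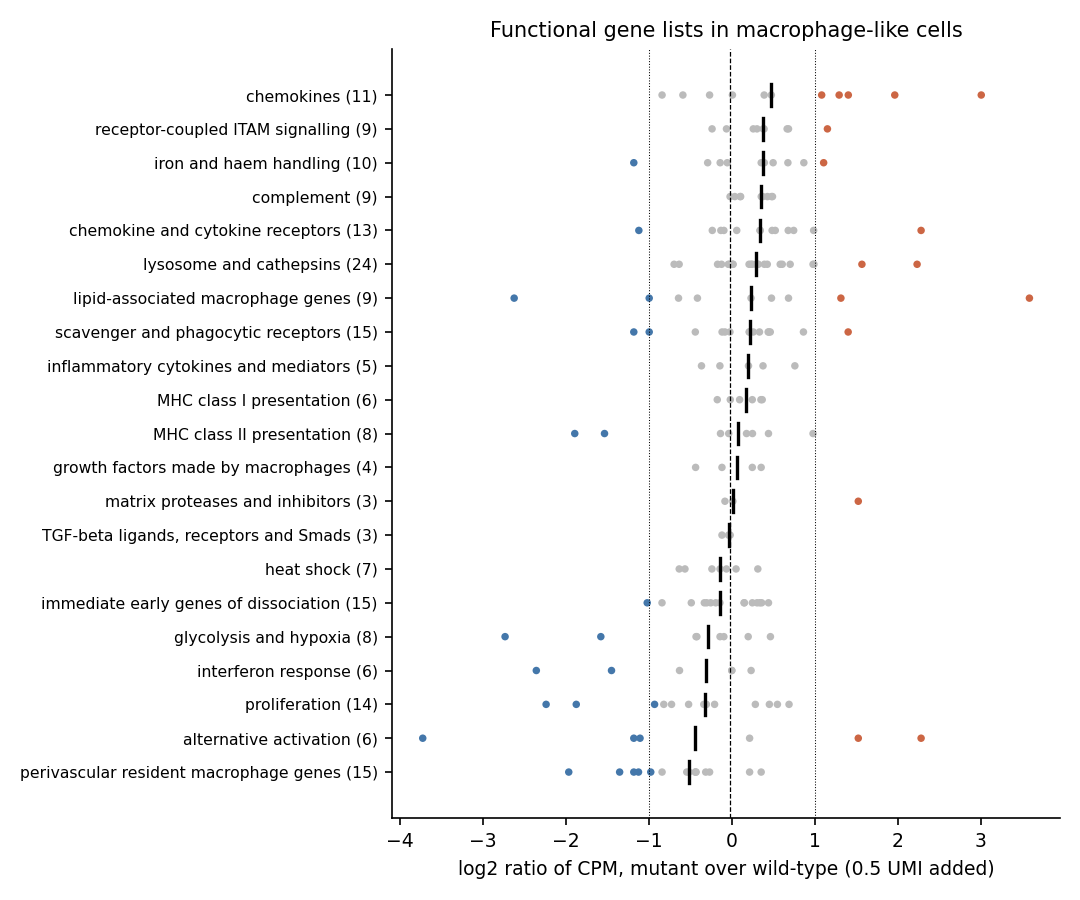
Each point is a measured gene of a list (rows, with the number measured in brackets), placed by its log2 ratio of CPM in macrophage-like cells, mutant over wild-type, with 0.5 UMI added. Black bars mark the list medians, the dashed line the median of 3496 genes and the dotted lines 2-fold, with genes at least 2-fold higher in orange and lower in blue. Chemokines have the highest median (0.48) and perivascular resident genes the lowest (-0.52).

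Genes of lipid-laden macrophages went both ways. Apoe had 4182 and 5215 UMIs, or 9159 and 22779 CPM, a ratio of 2.49 (2.39 to 2.59), with a ratio of 3.90 in the other cells. Over all members its ratio was 1.96 (1.89 to 2.04), just under 2-fold. Trem2, the lipid receptor, had a ratio of 1.61 (1.37 to 1.88), whereas Lpl, lipoprotein lipase, had 67 and 5 UMIs (0.149, 0.0468 to 0.365, or 0.317 over all members) and the fatty acid receptor Cd36 77 and 19 (0.492, 0.281 to 0.821). Of 9 measured members 2 were higher (Spp1 and Apoe) and 2 lower (Lpl and Cd36). Alternative activation genes divided in the same manner, with Fn1 (fibronectin, ratio 2.88, 2.28 to 3.65, or 5.19 in the Leiden clusters) and Il4ra higher and Cd163, Clec10a and Retnla lower among 6 measured. Fn1 had 782 CPM in the mutant macrophage-like cells, against 486 in the haemoglobin-rich cells, where it is background. Clec10a, a lectin, had 66 and 15 UMIs (0.453, 0.240 to 0.803). Retnla had 39 UMIs in only 2 wild-type members and 1 UMI in the mutant library, so 2 cells decide its value.

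The remaining lists had few members past 2-fold. Of the interferon response genes, Isg15 had 24 and 4 UMIs (24 and 10 over all members) and Rtp4 25 and 2, both over the limit in the wild-type library alone, and the most abundant of 6, Ifi27l2a, had a ratio of 0.646 (0.565 to 0.736). The 6 measured MHC class I genes had none past 2-fold, with B2m at a ratio of 1.07 (0.965 to 1.18). Of 15 scavenger and phagocytic receptors, Clec4n was higher and Cd163 and Cd36 lower. Of 10 iron and haem genes Hebp1 was higher (2.15, 1.68 to 2.77) and Cd163 lower, and the ferritin chains Fth1 and Ftl1 had ratios of 1.31 and 0.908. Among 8 glycolysis and hypoxia genes Gapdh (ratio 0.145) and Eno1 (0.322) were lower, with ratios of 0.217 and 0.260 in the other cells. Both have near-identical copies, whose part in the ratios was not tested. Of 15 immediate early genes, which dissociation can switch on, only Klf4 was past 2-fold (0.488, 0.329 to 0.707), and of 7 heat shock genes none. Of 8 genes of class II presentation, Cd74 and H2-DMb1 were past 2-fold, H2-DMb1 with 18 and 2 UMIs and over the limit in the wild-type library alone. Over all members both went the other way, H2-DMb1 with 20 and 93 UMIs. Of 3 matrix genes Fn1 was higher, and none of 5 inflammatory mediators or 4 growth factors was past 2-fold. The TGF-beta list had 3 measured members, Tgfb1 (ratio 0.916, 0.629 to 1.32), Tgfbr2 (0.976, 0.566 to 1.64) and the target Tgfbi (0.972, 0.785 to 1.20).

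Proliferation genes were widespread in both libraries. At least 2 UMIs of the 20 genes of the list were found in 67.2% of the wild-type (60.0 to 73.8%) and 58.9% of the mutant members (51.5 to 66.1%). After thinning to 1500 UMIs, which left 148 and 108 members, the shares were 56.1% (47.7 to 64.2%) and 57.4% (47.5 to 66.9%), so a difference was not detectable at this depth. In the cells that were neither members nor haemoglobin-rich, the thinned shares were 34.9% and 56.2%. The list holds abundant genes such as Tubb5, a tubulin, so the share is not a share of dividing cells. In the macrophage-like cells 10 of 14 measured members had a ratio below 1, where 45.4% of all 3496 genes had a ratio above 1. The median log2 ratio of the list was -0.32, against 0.31 for the same genes in the other cells. The 3 members past 2-fold met the limit in the wild-type library alone, so their count is no sign of a direction. Mki67 had 23 and 2 UMIs (ratio 0.173, 0.0198 to 0.702), Ccnb2, a mitotic cyclin, 47 and 6 (0.255, 0.0889 to 0.597) and Top2a 28 and 7 (0.499, 0.184 to 1.17), whereas the replication gene Pcna had 57 and 46 UMIs and a ratio of 1.61 (1.07 to 2.42). These ratios also moved with the cells summed, Mki67 to 0.370 over all members, Ccnb2 to 0.103 and Pcna to 0.843 (0.487 to 1.43) in the Leiden clusters.

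Markers of other cell types were mostly low in the macrophage-like cells. The list of 8 endothelial genes had 0.0809 and 0.111 UMIs per cell in the 2 libraries, with 4 genes at 0 in each, and the list of 8 skeletal muscle genes 0.0347 and 0.126. Schwann and neural genes had 1.20 and 0.837 UMIs per cell, above the 0.114 and 0.165 of the haemoglobin-rich cells, and Pmp22 alone gave 1.16 and 0.481 of these. The list of 8 pericyte genes had 0.306 and 0.178 and that of 9 red blood cell genes 0.908 and 0.370 UMIs per cell. The fibroblast list had 0.965 and 0.652 UMIs per cell, against 2.39 and 0.468 in haemoglobin-rich cells. The part of these transcripts in the ratios between libraries was not tested, other than by leaving tenocyte, fibroblast and haemoglobin UMIs out of the total, which left 22 and 35 genes past 2-fold.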

How the data were processed

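The authors dissociated limb tendons of P7 pups, made 10x Genomics 3′ libraries and ran Cell Ranger with default settings on mm10 (the submitters' notes give version 1.2.0, the methods another), and deposited raw UMI counts of 27998 genes per cell barcode without normalization. All barcodes were used, at 9451606 and 8250248 UMIs. Members and gene lists were chosen with earlier results of these data known.

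Members of each library were scaled to equal UMIs, put on a log2 scale, reduced to 10 principal components of 1000 variable genes without rule and tendon genes, and clustered by K-means (k = 6, scikit-learn 1.9.0). A cluster was named when at least 3 fixed markers were in 10% of its cells and 2-fold above other cells and most markers among its 10 leading genes were of that type. These thresholds, and that for mixed clusters (tenocyte and fibroblast UMIs per cell over 10 times those of haemoglobin-rich cells), were set after clusters had been seen. Summed counts became CPM, ratios have conditional exact intervals, shares Clopper-Pearson intervals, and neither is a test. Doublets called by Scrublet (scanpy 1.11.5) stayed in.

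Genes named are the label markers, abundant list members and, in each direction, the 12 with the largest ratio whose CPM was at least 2-fold that in haemoglobin-rich cells. Others, such as list members past 2-fold and the class II genes, were picked with their values known. Of 450 list genes 445 had a row, and Trbc2, Trac, Ighm, Iglc2 and Clec7a were not analysed here. Gene coordinates are from GENCODE M21. The ratio and interval were tested on simulated data. Some genes are not reported here.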

Additional observations from a re-analysis of the deposited data

How the results depend on the processing

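No paired analysis was possible because each condition is 1 library and no test was run, and for the same reason no replicate could be left out. The immune share moved beyond its interval in both libraries after thinning to 1500 UMIs (6.37% and 4.33%) and in the mutant library with at least 10 UMIs of the rule genes (5.98%). The macrophage-like share moved to 95.8% in the wild-type library with k = 4 and, with Leiden clustering, to 45.5% and 56.2%. Genes at least 2-fold higher numbered 35 over all members, 133 with a mean of at least 0.1 UMI and 9 among genes within 2-fold in the other cells. Genes at least 2-fold lower numbered 69 in Leiden clusters, 264 with a mean of at least 0.1 UMI and 17 among genes within 2-fold in the other cells. Over all members 29 genes were lower, so that 54.7% of the genes past 2-fold were higher, against 38.6% in the macrophage-like cells. That share was 47.8% with the clusters with tendon transcripts added, and between 30.3% and 45.8% under the other settings. List members past 2-fold, counted once per list, fell from 40 to 17 with a mean of at least 0.5 UMI, which tests fewer genes. The share with proliferation UMIs moved to 54.5% and 42.2% with at least 3 UMIs and, in the wild-type library, to 56.1% after thinning. The class II share of the mutant library moved to 23.1% after thinning, which left out mainly the shallower members that were not class II cells. Cd74 turned to a log2 ratio of 2.38 over all members. Of 24 named genes, 19 stayed past 2-fold in the same direction wherever they were measured. Of 21 list medians, 18 were counted as the same in every setting run for them, and 4 of the 63 values had moved. Counting class II cells, adding clusters with tendon transcripts, leaving out class II cells and using genes within 2-fold in the other cells were chosen after seeing the data.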

Other observations

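Over all 185 mutant and 189 wild-type members, H2-DMa and H2-DMb1, genes that help load class II molecules, were also higher in the mutant library. H2-DMa had 53 UMIs in 24 wild-type and 197 UMIs in 54 mutant members, and H2-DMb1 20 UMIs in 16 and 93 UMIs in 25. Both were higher in the other cells of the mutant library too, H2-DMa with 26 and 94 UMIs and H2-DMb1 with 19 and 51. Ciita, the activator of class II transcription, had 0 UMIs in the wild-type members and 5 UMIs in 5 mutant members, all of them class II cells. In the other cells Ciita had 1 UMI in the wild-type and 5 UMIs in 4 cells of the mutant library. Il1b had 10 UMIs in 3 wild-type and 23 UMIs in 11 mutant members, and 9 of the 11 were class II cells. Mast cell protease Mcpt4 had 114, 38 and 62 UMIs in the 3 wild-type and 22, 41, 28 and 27 in the 4 mutant mast cell-like cells. These counts are not scaled to the total UMIs of the cells, which were mostly higher in the wild-type cells. The 75 measured ribosomal protein genes had a median log2 ratio of -0.20 in the macrophage-like cells and 0.29 in the cells that were neither members nor haemoglobin-rich.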
